A study of Mus musculus with 4 samples.

Results

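The genes described here encode the machinery of oxidative phosphorylation, from the nuclear and from the mitochondrial genome. They were chosen by name from the protein-coding rows of the deposited tables: names starting with Ndufa, Ndufb, Ndufc, Ndufs, Ndufv, Uqcr, Cox4i, Cox5, Cox6, Cox7, Cox8 or Atp5, the genes Sdhb, Sdhc and Sdhd, and all protein-coding genes of the mitochondrial genome. This gave 106 of 54532 genes, 93 nuclear and 13 mitochondrially encoded. Polyadenylated RNA had been sequenced from RAW 264.7 cells, a mouse macrophage line, in 4 libraries: untreated wild type, untreated Hnrnpul1-/- (called knockout below), and wild type and Hnrnpul1-/- after 10 h with 100 ng/ml of LPS (lipopolysaccharide, from the outer membrane of Gram-negative bacteria). Each group held 1 library. The sources used here do not give how the knockout line was made or whether it is 1 clone, so clone and genotype cannot be told apart.

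Complexes I and II pass electrons from NADH and succinate to ubiquinone, complex III passes them on to cytochrome c, and complex IV passes them to oxygen. Complexes I, III and IV pump protons across the inner mitochondrial membrane, and complex V, the ATP synthase, uses the gradient to make ATP. All complexes but complex II combine nuclear subunits with subunits encoded by mitochondrial DNA, which is transcribed as long RNAs from both strands that are cut into gene-sized pieces. Macrophages given LPS are known to shift from oxidative phosphorylation towards glycolysis.

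Levels below are normalized CPM, read counts scaled to a common total with the library's TMM factor, and a level per length is the same value per kb of gene. Differences are log2 ratios of normalized counts between a pair of libraries, with a 95% interval in brackets that covers counting error only. With 1 library per group no difference has a replicate check, and fewer cells of a type and less RNA per cell cannot be told apart. The words called higher or called lower stand for a difference of 2-fold or more whose interval leaves out 0. Measured genes are those with a mean CPM of at least 1 over the 4 libraries.

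Total counts lay between 17045432 and 17909549. Hnrnpul1 stood at 268 and 203 CPM in the wild-type libraries without and with LPS and at 23.1 and 21.7 CPM in the knockout ones, so the targeted transcript went with the labels. Of 10 macrophage markers, 9 had at least 10 reads in every library, with summed levels from 3465 to 8295 CPM. Markers of T cells, B cells, fibroblasts, epithelium, muscle and neutrophils summed to at most 0.263 CPM per cell type.

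Of the 106 members, 98 were measured, 86 of them nuclear and 12 mitochondrially encoded, among 11640 measured genes. Most of the 8 others were tissue-specific isoforms of complex IV subunits. Cox4i2, the isoform known from lung and carotid body, had 15 and 9 reads in the untreated libraries and 1 and 4 reads with LPS, wild type first. All sets of 4 values below keep this order: wild type and knockout untreated, then wild type and knockout with LPS. Cox6b2 had 0, 1, 0 and 0 reads, Cox8b had 0, 0, 1 and 0, and Ndufa4l2, a paralog of the complex IV subunit gene Ndufa4, had 0, 1, 0 and 1. Cox7b2 and Cox8c had 0 reads in every library, where 0 reads allow a level of up to 0.155 to 0.195 CPM. A second row named Atp5o also had 0 reads in every library. Its exons overlap the first Atp5o row and Donson on the same strand over 100% of their length. How reads in such overlaps were counted is not given, so its 0 reads set no limit on its level. The mitochondrial gene mt-Atp8, which encodes a small subunit of complex V, had 12, 10, 10 and 18 reads.

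The ubiquitous isoforms carried the signal. Cox4i1 stood at 456, 438, 504 and 512 CPM and Cox8a at 296, 295, 282 and 272 CPM. Cox6a1 stood at 250, 224, 248 and 259 CPM, while Cox6a2, its heart and skeletal muscle form, stood at 1.37, 0.620, 1.63 and 0.497 CPM. Cox7a2 stood at 113, 116, 110 and 110 CPM and its muscle form Cox7a1 at 2.37, 1.29, 1.11 and 0.621 CPM. In both pairs the muscle form was far below the ubiquitous form in every library. The 3 genes of the proton-carrying c subunit of complex V encode the same mature protein; Atp5g3 led with 380, 344, 294 and 307 CPM, ahead of Atp5g2 (190, 177, 158 and 153 CPM) and Atp5g1 (84.9, 81.3, 85.9 and 75.8 CPM).

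Per length, and as a mean over the 4 libraries, mt-Co1, the catalytic subunit of complex IV, was highest at 6550 CPM per kb. It was followed by mt-Nd1, a core subunit of complex I, at 3269 CPM per kb. Next came mt-Cytb, the cytochrome b of complex III, at 3077 CPM per kb. The genes mt-Co2, mt-Co3, mt-Atp6, mt-Nd3 and mt-Nd4l, nearly all of whose sequence recurs in nuclear copies (below), cannot be placed in this order. The highest nuclear members per length were Cox8a (525 CPM per kb), Atp5b and Atp5a1, which encode the catalytic beta and the alpha subunit of complex V (468 and 419 CPM per kb), and Cox6a1 (349 CPM per kb). The highest nuclear members of complex I were the accessory subunits Ndufa2 (157 CPM per kb) and Ndufa1 (110 CPM per kb). In complex II Sdhd, a membrane anchor, led with 158 CPM per kb ahead of Sdhb with 58.3. In complex III Uqcrh, the hinge protein, at 191 CPM per kb and Uqcr10 at 169 CPM per kb were the highest nuclear members. The median nuclear complex I member of untreated wild type stood at 33.05 CPM per kb, against 119 for complex IV, 113 for complex III and 81.2 for complex V.

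With LPS, the reads of the nuclear and the mitochondrial members moved apart in both genotypes. The 13 mitochondrially encoded genes held 2.15, 2.10, 2.06 and 2.02% of all counts, and the 93 nuclear genes 1.47, 1.44, 1.09 and 1.07%. The exact binomial interval of the first of them ran from 2.14 to 2.15%, and such intervals cover counting error only, since reads copied by PCR, with no molecular identifiers, do not count separate molecules. The nuclear share was lower in both LPS libraries than in both untreated ones, whereas the mitochondrial shares of the 4 libraries lay close together. Shares of all counts carry a general shift: on that scale the median LPS log2 ratio of all measured genes was -0.30 in wild type and -0.33 in knockout. With TMM scaling the nuclear sums were 13293.5, 12937.4, 12047.9 and 11862.6 CPM and the mitochondrial ones 19389.7, 18784.7, 22869.4 and 22517 CPM. Mitochondrial reads per nuclear member read, a ratio that no scaling between libraries touches, stood at 1.46 and 1.45 in the untreated and at 1.90 in both LPS libraries. Without mt-Co1 the same ratio was 0.816, 0.782, 0.931 and 0.919, so that it was higher in both LPS libraries with and without the most abundant gene.

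**Figure D1:**
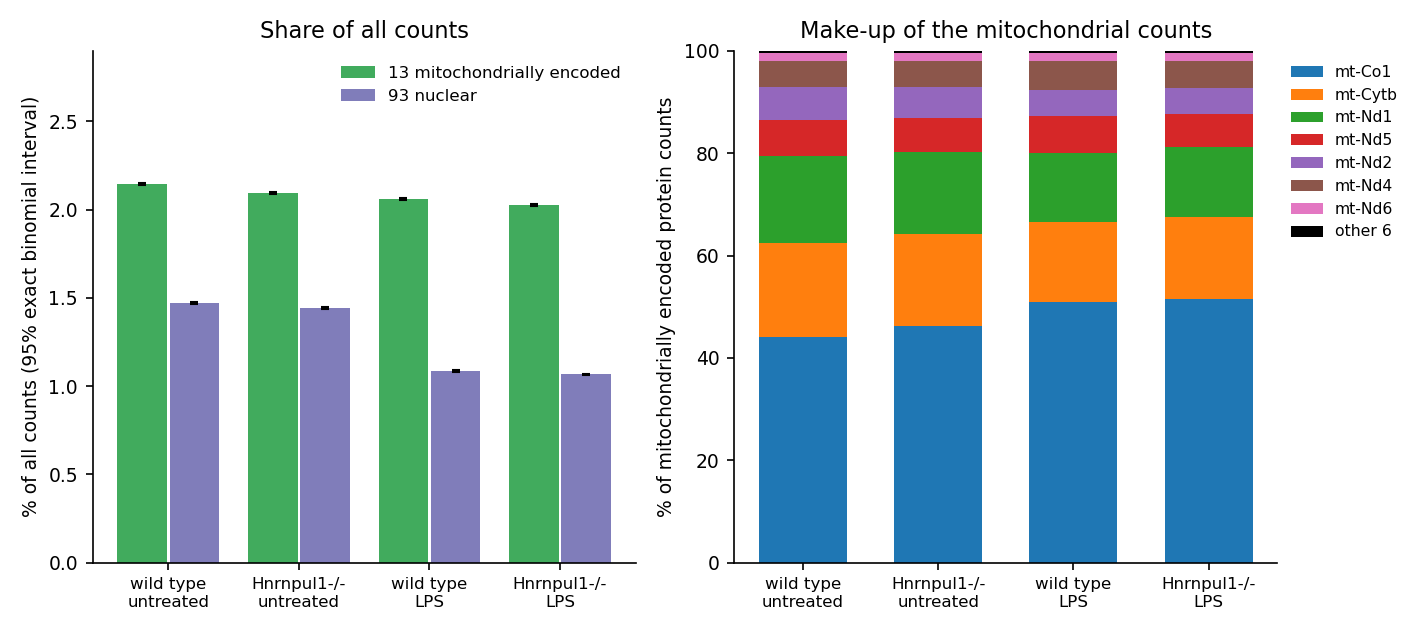
Left, percent of all counts held by the 13 mitochondrially encoded and the 93 nuclear members in each of the 4 libraries, with 95% exact binomial intervals; right, percent of the mitochondrially encoded protein counts that each gene held. The nuclear share was 1.47 and 1.44% without LPS and 1.09 and 1.07% with LPS, and mt-Co1 made up 44.1, 46.2, 50.9 and 51.6% of the mitochondrial counts.

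Nuclear members were mostly somewhat lower with LPS, by less than 2-fold. The wild-type pair had a median nuclear log2 ratio of -0.26 and the knockout pair one of -0.20, where the medians of all measured genes were -0.0039 and -0.020. In wild type 74 of 86 lay below 0, and in knockout 68. In both genotypes at once 65 of 86 (75.6%) lay below 0 and 9 (10.5%) above, against 44.3% and 42.8% of all measured genes. The differences were small ones. In wild type 87.2% of nuclear members stayed within 1.5-fold of their untreated level, against 60.2% of all genes, and in knockout 83.7% did, against 58.4%.

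Few members met the 2-fold rule. In wild type 2 of 98 members were called lower and 1 higher, where 10.1% of all measured genes were called lower and 11.2% higher. In knockout 1 of 98 was called lower and 0 higher, where 12% of all genes were called lower and 11.6% higher. Both shares were below those of all genes. At 1.5-fold, 11 members were lower and 1 higher in wild type (19.2% and 18.9% of all genes) and 12 were lower and 1 higher in knockout (21% and 19.3%).

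The secondary fit, an additive model of genotype and LPS over the 4 libraries with edgeR's quasi-likelihood test, took the other genotype as a stand-in for a replicate and had 1 residual degree of freedom. At an adjusted p threshold of 0.05 its LPS term called 42 of 86 nuclear members lower (48.8%) and 3 higher (3.49%), against 30.1% and 30.2% of all measured genes. Of 12 mitochondrially encoded members it called 5 higher and 0 lower. With DESeq2 in the same model 20 nuclear members were called lower (23.3%) and 1 higher (1.16%), against 19.9% and 22.8% of all genes. The mitochondrial counts were again 5 higher and 0 lower. The nuclear share called lower thus lay much nearer that of all genes with DESeq2 than with edgeR. The nuclear share called higher was far below that of all genes in both. Counts by complex below are those of edgeR alone.

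**Figure D2:**
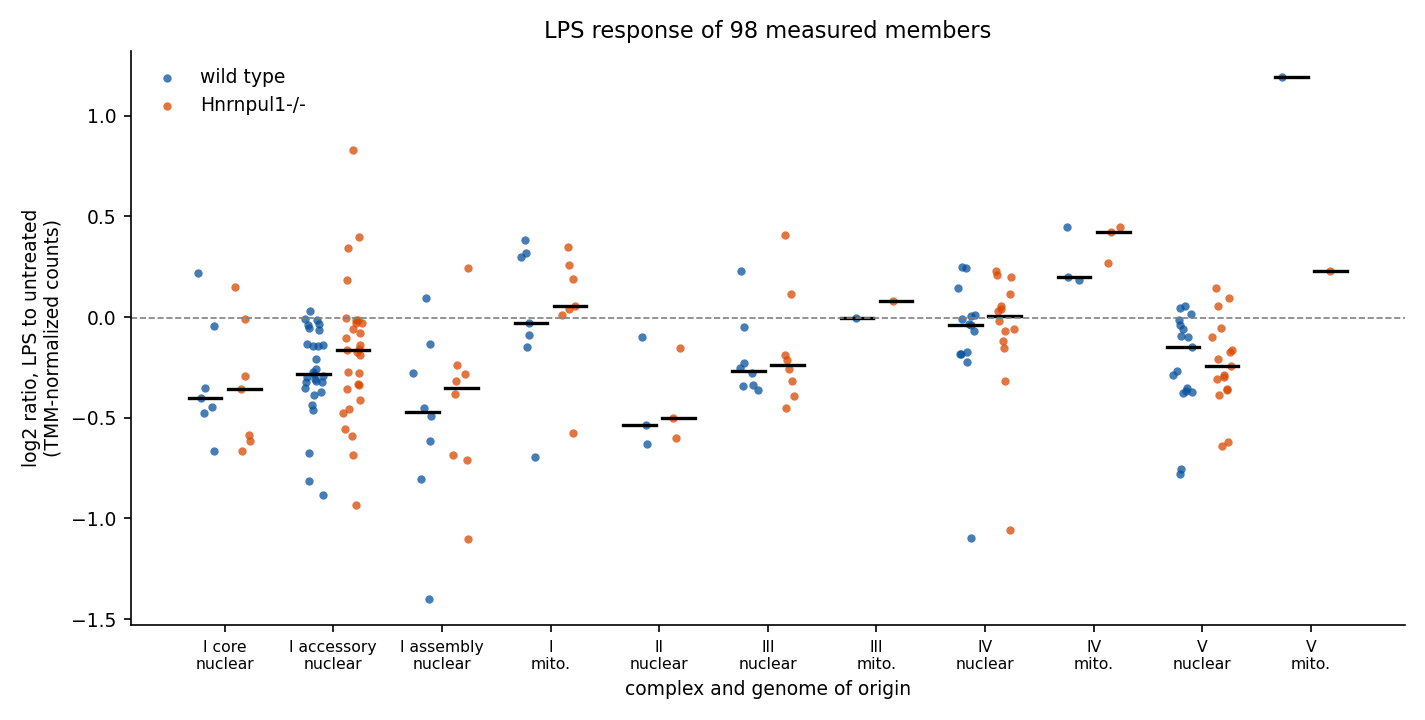
Log2 ratio of LPS-treated to untreated normalized counts for each of the 98 measured members (points, wild type blue and Hnrnpul1-/- orange), by complex and genome of origin; black bars are group medians and the dashed line is the median of all measured genes in wild type. Nuclear medians lie below the line for complexes I, II, III and V in both genotypes, and mt-Atp6 is the highest point at 1.19.

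Nuclear complex I members had median LPS ratios of -0.30 (wild type) and -0.27 (knockout), with 41 and 38 of 44 below 0. Among its 7 nuclear core subunits, which hold the flavin and iron-sulfur centres, medians were -0.40 and -0.36. The additive model called 5 of the 7 lower, where it called 30.1% of all measured genes lower. Ndufs7, a core subunit near the ubiquinone site, stood at 106, 97.5, 66.6 and 64.9 CPM, with ratios of -0.67 [-0.78, -0.56] and -0.59 [-0.70, -0.48] (edgeR adjusted p = 0.00016). Ndufv2, an iron-sulfur subunit of the NADH-oxidizing end, stood at 126, 128, 92.2 and 83.4 CPM. Both genes were lower in both LPS libraries than in both untreated ones. Ndufs3 lay above 0 in both genotypes, at 71.3, 73.0, 82.9 and 80.9 CPM and ratios of 0.22 [0.11, 0.33] and 0.15 [0.04, 0.26] (adjusted p = 0.063).

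The 29 accessory subunits of complex I, which surround the core, had medians of -0.28 and -0.16. The additive model called 14 lower and 0 higher, where it called 30.1% and 30.2% of all measured genes. Ndufa5 stood at 64.4, 62.2, 36.7 and 32.5 CPM, with ratios of -0.81 [-0.96, -0.67] and -0.93 [-1.09, -0.79]. It had the smallest adjusted p of all nuclear members, 5.4e-05, and its LPS libraries did not overlap its untreated ones. Ndufb10 stood at 76.0, 63.4, 47.6 and 47.7 CPM. Ndufa6 stood at 60.5, 54.0, 43.9 and 42.9 CPM. Ndufa2, Ndufa13, Ndufb6 and Ndufs5 had ratios between -0.06 and -0.01 in both genotypes, and these 4 genes were not called by any rule.

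Of 8 complex I assembly factors, which help to build the complex and are not part of it, 7 lay below 0 in each genotype. The additive model called 6 of the 8 lower, where it called 30.1% of all measured genes lower. Ndufaf7, a methyltransferase that acts during assembly, was the lowest member of all. It stood at 19.6, 19.1, 7.42 and 8.88 CPM, on 372, 369, 114 and 143 reads. It was called lower in both genotypes, at -1.40 [-1.71, -1.09] and -1.10 [-1.39, -0.82] (adjusted p = 0.00015). With the deposited FPKM and a pseudocount of 1 the knockout value was -0.85 and the call there was lost. Ndufaf3 (16.4, 17.1, 12.0 and 10.4 CPM) and Ndufaf6 (15.7, 15.6, 11.2 and 9.69 CPM) were also lower in both LPS libraries. Ndufaf5, which hydroxylates a residue of NDUFS7, was the exception, with ratios of 0.09 [-0.11, 0.30] and 0.24 [0.03, 0.46].

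All 3 complex II members lay below 0, with intervals off 0 in both genotypes. Sdhb, the iron-sulfur subunit, stood at 162, 154, 104 and 102 CPM and had ratios of -0.63 [-0.72, -0.54] and -0.60 [-0.69, -0.52] (adjusted p = 0.00012). Sdhd stood at 231, 228, 160 and 161 CPM. The second membrane anchor, Sdhc, differed less, at 126, 122, 117 and 109 CPM. The flavoprotein gene Sdha, which lies outside the name rule, had ratios of -0.45 and -0.52.

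In complex III the 8 nuclear subunits had medians of -0.27 and -0.24. The additive model called 5 lower and 1 higher, where it called 30.1% and 30.2% of all measured genes. Uqcrfs1, the Rieske iron-sulfur protein, stood at 176, 178, 140 and 135 CPM, lower in both LPS libraries. Uqcrq, the ubiquinone-binding small subunit, ran the other way with 176, 171, 206 and 228 CPM and ratios of 0.23 [0.16, 0.30] and 0.41 [0.34, 0.48] (adjusted p = 0.0063). Cyc1, the cytochrome c1 gene outside the rule, had ratios of -0.46 in both genotypes. Cycs, cytochrome c itself, had 0.28 and 0.30.

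Nuclear complex IV members stayed nearest to their untreated levels. The 14 measured ones had medians of -0.04 and 0.0041, with 5 and 7 above 0. Cox7b was almost level at 152, 154, 153 and 158 CPM, and Ndufa4, a complex IV subunit in spite of its name, at 163, 165, 160 and 172 CPM. Cox4i1 had ratios of 0.14 [0.10, 0.19] and 0.23 [0.18, 0.27]. Cox7a2l, a factor that joins complexes III and IV into supercomplexes, stood at 95.9, 102, 114 and 117 CPM, with ratios of 0.25 [0.15, 0.34] and 0.20 [0.11, 0.29]. Cox7a2l, Cox4i1 and Uqcrq were the 3 nuclear members that the additive model called higher, where it called 30.2% of all measured genes. Cox7a1, called lower in wild type at -1.10 [-1.995, -0.26], rested on 45, 25, 17 and 10 reads.

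The 17 measured members named for complex V had medians of -0.15 in wild type and -0.24 in knockout, with 14 of 17 below 0 in each. The catalytic subunit gene Atp5b was the exception among the abundant ones, at 1980, 1909, 2061 and 1985 CPM and ratios of 0.06 in both genotypes. Atp5a1 stood at 1421, 1383, 1282 and 1169 CPM, and Atp5c1, the central stalk gamma subunit, at 287, 283, 225 and 220 CPM. Atp5k, the e subunit that takes part in dimer formation, had the lowest ratios of the enzyme's subunits, -0.78 [-0.92, -0.64] and -0.62 [-0.75, -0.49]. It stood at 71.8, 70.8, 41.7 and 46.1 CPM, so both LPS libraries were below both untreated ones. Atp5s, a coupling factor outside the enzyme, stood at 5.05, 4.54, 2.996 and 2.92 CPM.

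Total-count scaling moved the median of all measured genes with LPS to -0.30 in wild type and -0.33 in knockout. Under it the nuclear medians were -0.55 and -0.51 and the mitochondrial ones -0.10 in both, so the sign of the mitochondrial median depended on the scaling. All 86 nuclear members then lay below 0 in wild type and 82 of 86 in knockout, where Uqcrq, Ndufa12, Ndufs4 and Ndufa1 were the exceptions, so the positive ratios of Cox4i1, Cox7a2l, Ndufs3 and Atp5b under TMM turned negative with total counts. A change of scaling shifts every log2 ratio of a pair by the same amount, so distances from the median of all genes cannot move. Nuclear medians differed from that median by -0.25 and -0.18 and mitochondrial ones by 0.20 and 0.23 under both scalings. The gap between the mitochondrial and the nuclear median was 0.45 and 0.41.

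The 13 mitochondrially encoded genes differed widely in depth and in how much of their sequence is repeated in other annotated genes. Every stretch of 100 bases of each gene was looked up in all other transcripts of the GENCODE M21 annotation (GRCm38). For mt-Co2, mt-Co3, mt-Atp6, mt-Nd3 and mt-Nd4l, between 97.6 and 99.9% of these windows also occurred in unprocessed pseudogenes on chromosome 1, which are copies of mitochondrial DNA in the nuclear genome. These 5 genes had 24 to 773 reads per library. The share was 60.8% for mt-Nd4, 30.8% for mt-Co1 and 3.19% for mt-Nd2, and these 3 genes had 17471 to 186955 reads. It was 0 for mt-Nd1, mt-Nd5, mt-Nd6, mt-Cytb and mt-Atp8, of which mt-Atp8 had 10 to 18 reads and the other 4 had 5359 to 67692. Nuclear sequence outside annotated transcripts was not searched, and 21.1% of mt-Atp8 overlaps mt-Atp6 on the same strand. The low count of mt-Atp8 therefore cannot be taken as free of shared sequence. The sources used here do not give how reads that match several places were counted, and the part of such reads in the low counts was not tested. Levels of the 5 genes are therefore not comparable with those of the other mitochondrial genes.

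How close the copies are is shown by mt-Nd3, a small core subunit of complex I. Its copy, the pseudogene Gm28438 (chr1:24612775-24613119, minus strand, GRCm38), matched it over 345 bases with the single substitution T3C, counted from 1 at the first base of the gene. Capitals mark the base that differs in the first 90 bases of the gene (chrM:9459-9548, plus strand) and of the copy (chr1:24613030-24613119, minus strand).
mt-Nd3: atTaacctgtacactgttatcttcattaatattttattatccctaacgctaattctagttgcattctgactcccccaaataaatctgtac
Gm28438: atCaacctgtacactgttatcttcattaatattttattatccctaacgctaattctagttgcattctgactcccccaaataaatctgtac
The copies of mt-Co2 (Gm28661, 681 bases), mt-Atp6 (Gm10925, 678 bases), mt-Co3 (Gm28437, 783 bases), mt-Nd4l (Gm10222, 294 bases) and part of mt-Nd4 (Gm28439, 876 bases) had no difference over the aligned bases. The next stretch, from the middle of the aligned part of mt-Atp6, reads the same in gene (chrM:8221-8310, plus strand) and copy (chr1:24614268-24614357, minus strand), and so has no capitals.
mt-Atp6: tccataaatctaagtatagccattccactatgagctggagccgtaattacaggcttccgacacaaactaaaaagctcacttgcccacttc

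The copies of the 5 genes held a large part of the reads. Gm28438 had 708, 810, 256 and 302 reads beside 48, 70, 24 and 39 for mt-Nd3. Gm10925 had 458, 606, 415 and 452 beside 304, 367, 562 and 358 for mt-Atp6. For mt-Co2, mt-Co3, mt-Atp6, mt-Nd3 and mt-Nd4l the copy held 35.1 to 93.7% of the reads of gene and copy together, and for mt-Co1 and mt-Nd4 at most 0.66%.

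**Figure D3:**
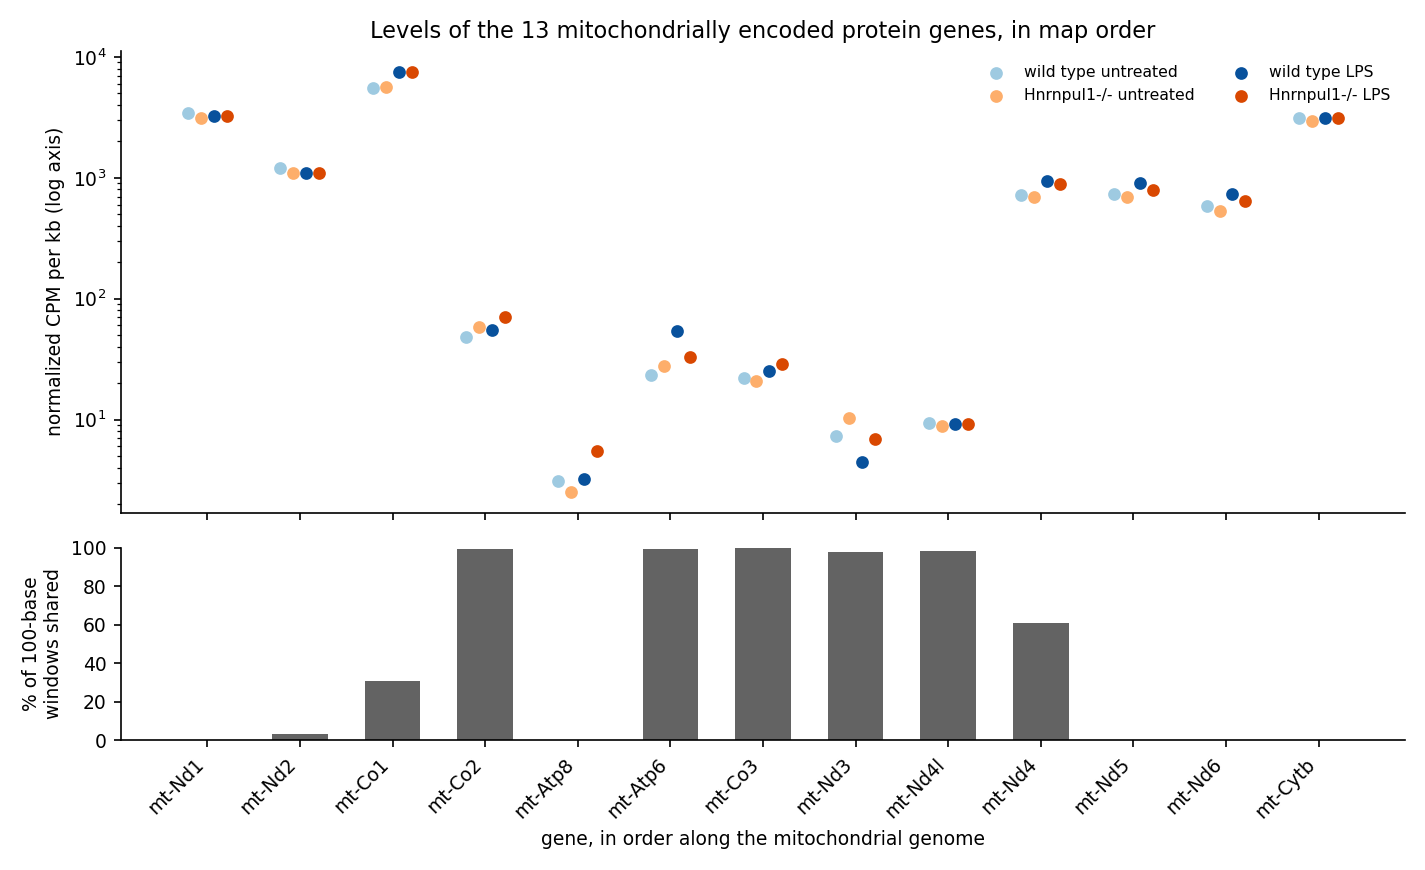
Top, level per length (normalized CPM per kb, log axis) of the 13 mitochondrially encoded protein genes in the 4 libraries, in their order along the mitochondrial genome; bottom, percent of each gene's 100-base windows that also occur in another annotated transcript. The 5 genes with 97.6 to 99.9% of windows shared lie between 4.49 and 70.2 CPM per kb, and mt-Atp8, with no shared window, lies between 2.53 and 5.48.

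Among the deeply read mitochondrial genes, mt-Co1 and 3 complex I genes were higher with LPS in both genotypes, while mt-Nd1, mt-Nd2 and mt-Cytb stayed close to their untreated levels under TMM scaling. mt-Co1 stood at 8547, 8674, 11649 and 11611 CPM, with ratios of 0.45 [0.44, 0.46] and 0.42 [0.41, 0.43] (edgeR adjusted p = 0.00025). mt-Nd4, a core subunit of the proton-pumping arm of complex I, stood at 993, 964, 1295 and 1227 CPM. Its ratios were 0.38 [0.35, 0.41] and 0.35 [0.32, 0.38]. Both genes were higher in both LPS libraries than in both untreated ones. With total-count scaling the ratios of mt-Co1 were 0.15 and 0.11 and those of mt-Nd4 0.08 and 0.04, still above 0.

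mt-Nd5, the largest subunit of the proton-pumping arm, stood at 1345, 1260, 1654 and 1438 CPM, with ratios of 0.30 [0.27, 0.32] and 0.19 [0.16, 0.22]. mt-Nd6, the one protein gene on the other strand of the mitochondrial DNA, stood at 304, 278, 380 and 333 CPM. Its ratios were 0.32 [0.27, 0.37] and 0.26 [0.21, 0.32]. The sources used here do not state a strand setting for the counting, so reads from mt-Nd6 and from the opposite strand cannot be told apart. With total-count scaling the knockout ratios of mt-Nd5 and mt-Nd6 turned to -0.12 and -0.05, and the wild-type ones came to 0.00016 and 0.02.

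mt-Cytb stood at 3563, 3386, 3555 and 3574 CPM, mt-Nd1 at 3302, 3011, 3101 and 3099 CPM and mt-Nd2 at 1262, 1130, 1138 and 1137 CPM. For mt-Nd1 and mt-Nd2 untreated wild type was the highest of the 4 libraries under TMM, and the other 3 lay together. With total-count scaling the LPS ratios were -0.39 and -0.27 for mt-Nd1, -0.45 and -0.30 for mt-Nd2 and -0.30 and -0.23 for mt-Cytb. As a part of the mitochondrial protein reads, mt-Co1 went from 44.1 and 46.2% without LPS to 50.9 and 51.6% with LPS. The parts of mt-Nd1 (17.03, 16.03, 13.6 and 13.8%), mt-Nd2 (6.51, 6.02, 4.98 and 5.05%) and mt-Cytb (18.4, 18.02, 15.5 and 15.9%) were lower in both LPS libraries. These parts are free of scaling between libraries.

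Reads of the mitochondrial ribosomal RNAs, which poly-T capture does not select for, numbered 9904, 10742, 6630 and 7743. Their sum was lower in both LPS libraries, and its part in the differences among the protein genes was not tested.

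The low-depth mitochondrial genes that have copies changed their values by different amounts once the copies were counted with them. mt-Atp6, the proton channel subunit of complex V, stood at 16.003, 18.9, 36.6 and 22.2 CPM and was called higher in wild type at 1.19 [0.99, 1.40], against 0.23 [0.02, 0.44] in knockout, a value that turned to -0.08 with total-count scaling. LPS-treated wild type stood apart from the other 3 libraries. Counted with Gm10925 the ratios were 0.67 [0.53, 0.80] and 0.0020 [-0.13, 0.14], so the call in wild type was lost. mt-Nd3 together with its copy went the other way, with 756, 880, 280 and 341 reads and ratios of -1.13 [-1.33, -0.93] and -1.10 [-1.29, -0.92]. Within each genotype the LPS library was thus below the untreated one by more than 2-fold, whereas mt-Nd3 alone had ratios of -0.69 [-1.46, 0.04] and -0.58 [-1.18, 0.01] on its 24 to 70 reads. mt-Co2 with its copy had 0.12 and 0.26, against 0.19 and 0.27 alone. mt-Co3 with its copy had 0.18 and 0.33, against 0.20 and 0.45 alone. mt-Nd4l with its copy had ratios of -0.05 and 0.14 on at most 127 reads, with intervals across 0.

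Between genotypes the members differed little. Without LPS the knockout to wild-type ratios had a median of -0.04 over nuclear and of -0.08 over mitochondrial members, against 0.0068 for all measured genes. Of 98 members 1 was called lower and 0 higher, where 0.859% and 1.15% of all genes were called. With LPS the medians were -0.021 and -0.0014, and again 1 member was called lower and 0 higher, where 1.83% and 1.66% of all genes were called. At 1.5-fold, 3 members were lower and 0 higher without LPS (2.17% and 2.71% of all genes), and 2 were lower and 1 higher with LPS (4.5% and 3.98%). Within 1.5-fold lay 96.5% of nuclear members in each comparison, against 93.1% and 89.2% of all genes. Once genes averaging under 10 CPM were left out, the shares of all genes were 97.7% untreated and 95.4% with LPS. The members' share of 96.5% still included members under 10 CPM, so it is not at a like threshold with these shares. Whether nuclear members were steadier between genotypes than deeply read genes in general was not tested. The additive model called 0 members for genotype by edgeR, with smallest adjusted p of 0.22 among nuclear and 0.17 among mitochondrial members, and 0 by DESeq2. At an unadjusted p under 0.05, edgeR had 2 nuclear and 3 mitochondrial members, together 5.10% of 98, against 13.2% of all measured genes. Of all genes the edgeR fit called 0.988% higher and 0.928% lower, and DESeq2 0.517% and 0.648%.

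The member called in both genotype comparisons was Cox6a2, which had 26, 12, 25 and 8 reads. Its ratios were -1.14 [-2.26, -0.11] untreated and -1.71 [-3.07, -0.52] with LPS. The other muscle isoform, Cox7a1, had ratios of -0.88 [-1.64, -0.14] and -0.83 [-2.12, 0.38] on 45, 25, 17 and 10 reads. Both muscle isoforms had fewer reads in each knockout library than in the wild-type library of the same treatment, and both were left out by a minimum mean CPM of 10. Part of the exons of Cox6a2, 10.3%, overlaps Itgad on the other strand.

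Without LPS the highest nuclear ratios were those of Ndufa11 (0.19), Atp5h (0.16) and Ndufa3 (0.14), and the lowest, among members with a mean CPM of at least 5, were those of Ndufa12 (-0.76), Ndufaf5 (-0.27) and Ndufb10 (-0.26). Under the same minimum, the highest with LPS were Ndufb2 (0.80), Ndufa12 (0.51) and Uqcrb (0.46), and the lowest Ndufs1 (-0.30), Atp5l (-0.27) and Ndufab1 (-0.21). Ndufb2 stood at 6.74, 6.97, 3.65 and 6.33 CPM, with LPS-treated wild type below the other 3 libraries. Ndufs1, the largest complex I core subunit, stood at 175, 177, 137 and 111 CPM and was lowest in LPS-treated knockout. Ndufa12 was thus among the lowest without LPS and among the highest with LPS.

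**Figure D4:**
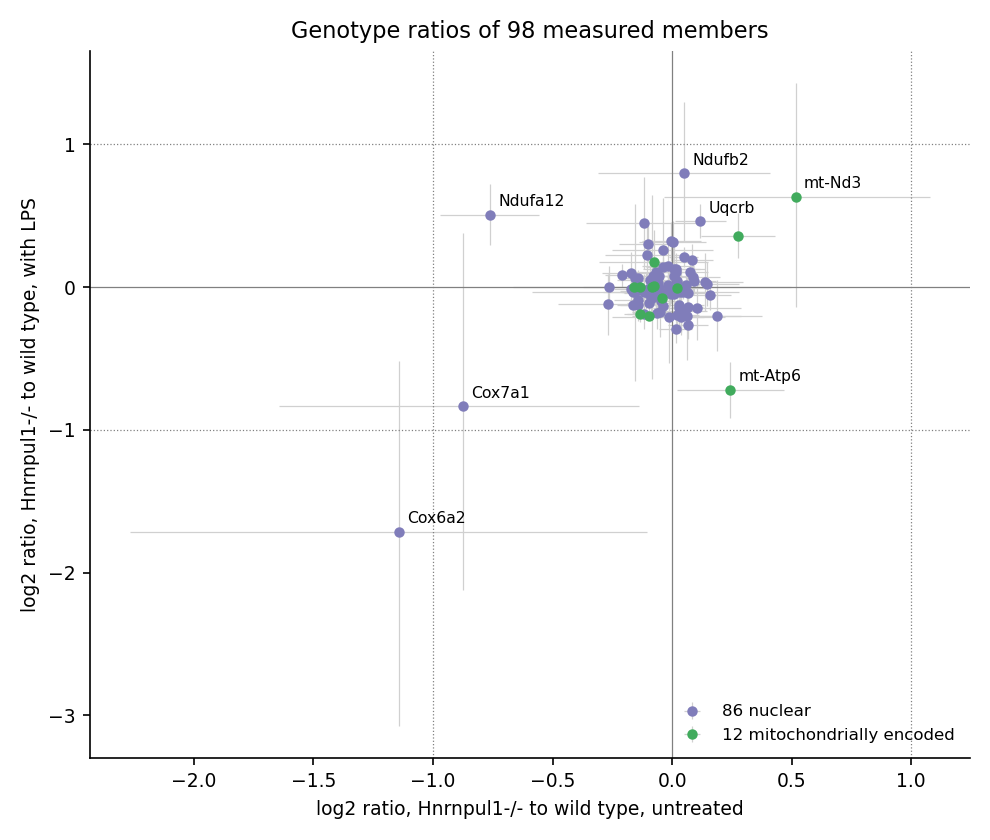
Log2 ratio of Hnrnpul1-/- to wild type without LPS (horizontal axis) and with LPS (vertical axis) for the 98 measured members, with 95% counting intervals in grey and dotted lines at 2-fold. Most members cluster near 0; Cox6a2 lies at -1.14 and -1.71, and Ndufa12 at -0.76 and 0.51.

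Ndufa12, an accessory subunit of the NADH-oxidizing arm (chromosome 10, 94198720 to 94221443, GRCm38), had opposite LPS ratios in the 2 genotypes. It had 509, 306, 304 and 453 reads, or 26.8, 15.8, 19.8 and 28.1 CPM. Untreated wild type and LPS-treated knockout were high, and the other 2 libraries were low. Its LPS ratio was -0.44 [-0.65, -0.23] in wild type and 0.83 [0.62, 1.05] in knockout. The difference, 1.27 [0.98, 1.56], was the 1 of 98 members called higher in the comparison of LPS ratios between genotypes, where 0 were called lower and where 1.19% and 1.84% of all genes were called. Of its 100-base windows, 11.4% also occur in the processed pseudogene Gm15920.

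Smaller opposite LPS ratios, each with both intervals off 0, were found for 4 further members. Uqcrb, a ubiquinone-binding subunit of complex III, stood at 72.9, 79.1, 62.2 and 85.6 CPM, and Cox6b1, which links the monomers of complex IV, at 174, 150, 154 and 163 CPM. Ndufa7 stood at 56.1, 56.0, 50.9 and 63.6 CPM. In Uqcrb and Ndufa7 LPS-treated knockout was the highest library and LPS-treated wild type the lowest, and in Cox6b1 untreated wild type was highest. With total-count scaling the LPS ratios of these 4 members lay below 0 in both genotypes, while those of Ndufa12 kept opposite signs at -0.73 and 0.52. The differences of LPS ratios were 0.34 for Uqcrb, 0.32 for Ndufa7, 0.29 for Cox6b1 and 0.13 for mt-Nd1. Over the 86 nuclear members the median difference was 0.03, with 51 above 0, and over all measured genes -0.010.

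**Figure D5:**
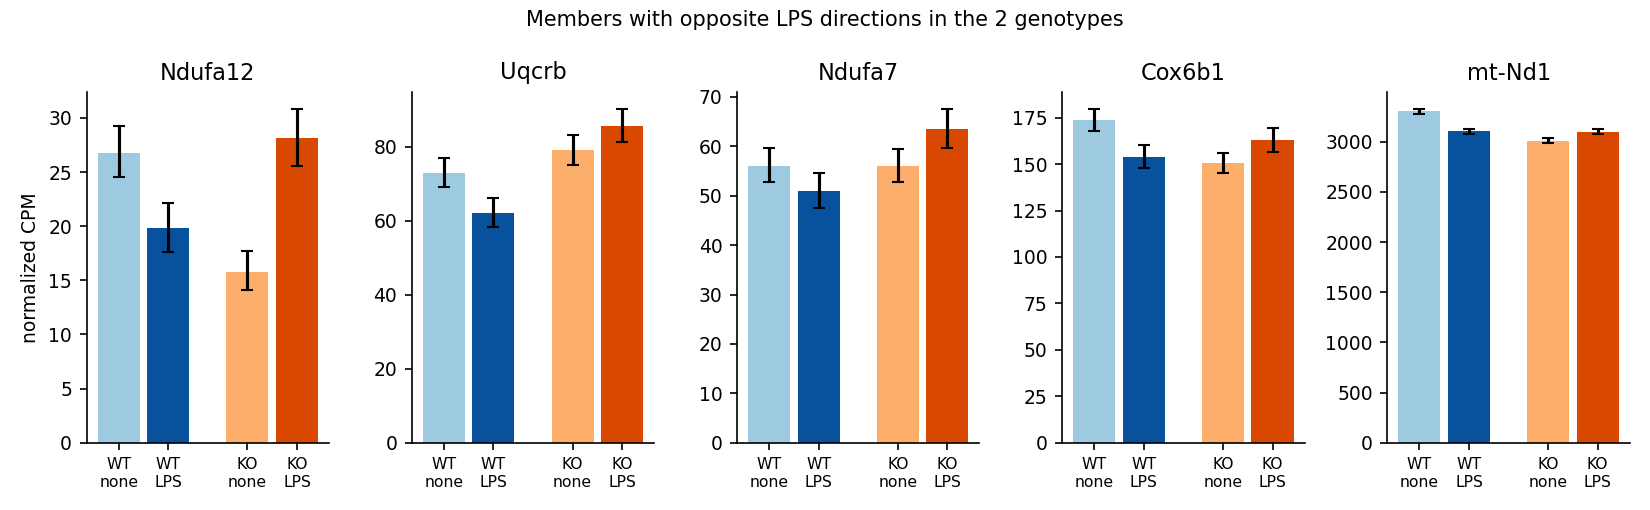
Normalized CPM of the 5 members whose LPS ratios had opposite signs in the 2 genotypes with both counting intervals off 0, in wild type (WT) and Hnrnpul1-/- (KO) without (none) and with LPS; error bars are 95% exact Poisson intervals of the counts, which cover counting error only. Ndufa12 runs from 26.8 to 19.8 CPM in wild type and from 15.8 to 28.1 CPM in knockout.

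Further differences of LPS ratios between genotypes stayed under 2-fold. The highest after Ndufa12 were Ndufb2 at 0.75 [0.16, 1.33] and the assembly factor gene Ndufaf2 at 0.57 [0.17, 0.96]. Of Ndufaf2's exons, 65.6% overlap B230220B15Rik on the other strand. At 1.5-fold, 2 members were higher and 1 lower, where 2.64% and 3.86% of all genes were. mt-Atp6 was the lowest member, at -0.96. The lowest nuclear ones with a mean CPM of at least 5 were Ndufa11 at -0.39 [-0.69, -0.08], Atp5l at -0.33 [-0.46, -0.21] and Ndufs1 at -0.31 [-0.43, -0.20].

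Genes that work beside the members were followed in 5 lists, whose counts stand beside 11.2% higher and 10.1% lower of all measured genes in the wild-type LPS pair and 11.6% and 12% in the knockout pair. Of 44 measured assembly factors outside the name rule, the wild-type LPS pair had 1 called higher and 2 called lower and the knockout pair 2 and 3. Their medians were -0.20 and -0.10. Cox18, which inserts part of the COX2 protein into the membrane, was higher in both genotypes (1.08 and 1.17). Lyrm7, which helps to insert the Rieske protein into complex III (-1.83 and -1.96), and Cmc2, a complex IV biogenesis factor (-1.43 and -1.20), were lower in both. In knockout alone, Cox17, a copper chaperone of complex IV, was called higher at 1.26 and Nubpl, an iron-sulfur factor of complex I assembly, lower at -1.01; their wild-type ratios were 0.75 and -0.64, and the differences between genotypes were not called.

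Of 35 genes of mitochondrial transcription and RNA processing, 2 were called higher and 1 lower in each genotype, with medians of -0.06 and -0.08. Pnpt1, a mitochondrial polynucleotide phosphorylase, was higher in both (1.49 and 1.20), and Mgme1, a mitochondrial DNA exonuclease, was lower in both (-1.38 and -1.12). Tfam, the mitochondrial transcription and packaging factor, had ratios of -0.09 and -0.11. Mterf2, of the mitochondrial termination factor family, had 19, 29, 43 and 23 reads and ratios of 1.49 and -0.07, and the difference of -1.55 was called lower. Slirp, which keeps mitochondrial messenger RNA stable, was called higher in knockout (0.47 and 1.08). Among 13 measured regulators, Nrf1, an activator of many respiratory genes, had ratios of -0.82 and -0.59. Ppargc1a, the coactivator known from muscle and brown fat, had 0 reads in every library. Myc, with 7, 4, 739 and 791 reads, was called higher at 7.03 and 7.89, and Gabpb2 was called lower in knockout at -1.06.

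Among 12 electron carriers and subunits outside the rule was Sqor, which passes electrons from sulfide to ubiquinone. It had 7, 19, 94 and 152 reads and was called higher with LPS in both genotypes (4.05 and 3.27). On its 7 and 19 untreated reads, knockout was called higher than wild type at 1.41 [0.10, 2.91], where 1.15% of all genes were called higher. Prodh, proline dehydrogenase, was called lower in wild type (-1.53). AA467197 (Nmes1), a paralog of Ndufa4, had 0, 1, 26 and 15 reads and was under the filter. Of 12 genes of uncoupling and oxidant handling, the mitochondrial superoxide dismutase Sod2 (2.49 and 2.73) and the peroxiredoxin Prdx5 (2.64 and 3.01) were called higher in both genotypes. Ucp2, the uncoupling protein gene of macrophages, had ratios of -0.04 and -0.03.

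Promoter sequences of RefSeq (GRCm38.p6), from 250 bases before to 50 after the start, were matched to 76 of 93 nuclear rows, which gave 75 genes and 80 promoters. The letters GCGCATGCG, the core of sites for NRF1, were found on either strand in 12.5% of the members' promoters, against 3.96% of promoters of other measured protein-coding genes and 1.75% of all promoters. AAGATGGC, the YY1 core, was found in 13.8%, against 4.83% and 2.75%. CCGGAAGT, a core of ETS factor sites, was found in 6.25%, against 9.11% and 3.89%. CCAAT was found in 42.5%, against 38.4% and 37.4%, and TATAAA in 10%, against 6.66% and 13.6%. A match describes letters and is not evidence of a bound site. The NRF1 core is nearly palindromic, so a run of the core with 1 more base can match on both strands and was counted once per promoter.

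The 10 measured members with the NRF1 core had median LPS ratios of -0.27 (wild type) and -0.28 (knockout), and the 62 measured members whose promoters lack it -0.28 and -0.17. Both sets spanned positive and negative ratios, and those with the core ran from -0.78 to 0.09 in the wild-type pair and from -0.69 to 0.24 in the knockout pair. With the core, 8 of 10 lay below 0 in each genotype, and without it 56 of 62 in wild type and 50 of 62 in knockout. Upstream sequences of 4 of the 10 are shown only as examples of the core's place before the start. The ratios of these 4 genes were -0.78 and -0.62 for Atp5k, -0.29 and -0.28 for Ndufa8, -0.30 and -0.69 for Ndufa11 and -0.27 and -0.21 for the c subunit gene Atp5g2. Each sequence is the run of 120 bases that ends at the base before the start, and capitals mark the NRF1 core on either strand. They lie at chr5:108434400-108434519 (minus strand), chr2:36049339-36049458 (minus), chr17:56717642-56717761 (plus) and chr15:102671048-102671167 (minus).
Atp5k: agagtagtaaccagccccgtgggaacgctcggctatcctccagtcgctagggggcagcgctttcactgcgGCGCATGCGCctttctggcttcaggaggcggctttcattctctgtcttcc
Ndufa8: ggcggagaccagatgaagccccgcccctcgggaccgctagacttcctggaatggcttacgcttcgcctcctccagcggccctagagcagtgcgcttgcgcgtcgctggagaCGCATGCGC
Ndufa11: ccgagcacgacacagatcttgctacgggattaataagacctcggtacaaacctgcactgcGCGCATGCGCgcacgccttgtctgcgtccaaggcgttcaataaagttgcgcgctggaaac
Atp5g2: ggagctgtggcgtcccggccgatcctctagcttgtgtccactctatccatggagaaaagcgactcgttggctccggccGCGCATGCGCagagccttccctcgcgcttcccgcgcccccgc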

How the data were processed

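Gene counts and FPKM values of 4 libraries, 1 per group, were used as deposited. Per the submitters' processing notes, base calling used CASAVA 1.8, alignment HISAT2 2.0.5 and counting featureCounts 1.5.0-p3, on GRCm38. The authors' deposited count values are whole reads per gene. The deposited FPKM values are the authors' own and were used only as an alternative. Strand and multi-mapping settings are not given in the sources used here, nor whether the libraries came from separate cultures, so their spread may be technical.

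Counts were normalized by TMM (edgeR 4.0.16, R 4.3.3). Log2 ratios between 2 libraries carry exact conditional (Clopper-Pearson) 95% counting intervals (scipy 1.17.1), and a count of 0 entered as 3. The minimum for a measured gene was a mean CPM of 1. The additive model used edgeR's quasi-likelihood test with Benjamini-Hochberg adjustment over all measured genes, with DESeq2 1.42.0 as alternative. The scripts were tested on simulated counts. Alternatives were DESeq2 size factors, total-count scaling, TMM without mitochondrial genes, a mean CPM of at least 10, no filter, a 1.5-fold rule, FPKM (pseudocount 1), and, added after seeing the data, leaving out members with nuclear copies or adding the copies' reads.

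Named were all mitochondrial members, called members, the 3 highest and 3 lowest nuclear ones of each comparison (mean CPM 5 or more), the 2 highest per length in each complex, isoform groups, members under the filter and called genes of the related lists. Others were named as examples after their values were seen. The members and lists were chosen with earlier results of these data known. Sequences are from GENCODE M21 transcripts (GRCm38) and RefSeq promoters (GRCm38.p6).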

Additional observations from a re-analysis of the deposited data

Results flagged for a closer look

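In 5 members the LPS ratio had one sign in wild type and the other in knockout, with both counting intervals off 0. These were 5.10% of 98 members, against 130 of 11640 measured genes (1.12%). Whether a counting interval leaves out 0 depends on read depth, and no share over genes of like depth was computed. With 1 library per group this difference was not tested against replicate spread. On the log2 scale, the knockout LPS ratio less the wild-type one came to 1.27 for Ndufa12, 0.34 for Uqcrb, 0.32 for Ndufa7, 0.29 for Cox6b1 and 0.13 for mt-Nd1. With total-count scaling Ndufa12 kept opposite signs, and the other 4 had ratios below 0 in both genotypes.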

How the results depend on the processing

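No paired analysis was possible because each group held 1 library, so that the groups share 1 replicate number only; the additive model is the one fit that sets both pairs side by side. Of the main counts, medians and shares, 131 recomputed values stayed within tolerance (counts within 1.5 times, medians within the half-width of the members' median counting interval, shares within their binomial interval) and 35 moved, as follows; the cause was not tested. Total-count scaling gave, for LPS, 0 members higher and 7 lower among the wild-type libraries and 4 lower among the knockout ones (of all genes 8.38% higher and 16.4% lower, and 18.5% lower), with nuclear medians of -0.55 and -0.51 and mitochondrial medians of -0.10 in both. A mean CPM of at least 10 left 1 member lower with LPS in wild type, a mitochondrial median of 0.25 there, and 0 lower in knockout against wild type, untreated or with LPS. The 1.5-fold rule gave 11 lower with LPS in wild type, 1 higher and 12 lower in knockout, 3 lower for genotype untreated, 1 higher and 2 lower with LPS, and 2 higher and 1 lower for the difference of LPS ratios. Deposited FPKM gave 1 lower with LPS in wild type, 0 in knockout and 0 in both genotype comparisons (of all genes 6.23, 7.01, 0.421 and 0.861% lower). Without the members that share over 50% of their windows, the mitochondrial medians were 0.15 and 0.13. DESeq2 called 20 nuclear members lower and 1 higher for LPS. The mitochondrial share was 2.20, 2.15, 2.11 and 2.08% of protein-coding counts and 5.20, 5.06, 4.69 and 4.51% of summed FPKM. Of the values of single members, 1432 stayed inside the counting interval of the main value and 84 left it. No filter, the minimum mean CPM of 10 and the 1.5-fold rule reused the main ratios, so single values under them could not leave it. The medians under the 1.5-fold rule were likewise fixed, and they count among the 131. Low depth limits Cox6a2, Cox7a1 and mt-Nd3, whose intervals are wide. No difference has a replicate check.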
